A study of Mus musculus with 6 samples.

Results

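The AP-1 and small MAF transcription factors described here are 10 genes, found by gene symbol in the count tables: Fos, Fosb, Fosl1 and Fosl2 of the FOS family, Jun, Junb and Jund of the JUN family, Atf3, and the small MAF genes Maff and Mafk. All 10 were among the 24421 listed genes, and all 10 had enough counts for testing. Fosb passed the count filter only through its pressure libraries. The cells were primary liver sinusoidal endothelial cells of wild-genotype mice, the fenestrated lining of the hepatic sinusoids, picked with beads against CD146 and plated overnight on collagen I. Every sample was starved of serum for 6 h. For the next 8 h the 3 pressure samples were exposed to hydrostatic pressure, which moved periodically from 101 kPa to 135 kPa (absolute values) and back, with a frequency of 0.01 Hz. The 3 control samples were not given pressure, and how they were kept over those 8 h is not labelled, so culture time and handling cannot be told apart from pressure. The labels give no strain, sex, age or number of animals, put all 6 samples under a single batch label, and leave unstated if replicates are independent cultures or animals. Spread among replicates, and with it every p-value here, may therefore be technical.

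AP-1 is a dimer of basic leucine zipper (bZIP) proteins. FOS proteins must pair with a JUN protein to bind DNA, whereas JUN proteins also pair with each other and with ATF proteins. The preferred sites are the TPA response element and the closely related cyclic AMP response element (CRE). The small MAF proteins are bZIP proteins without a transactivation domain: as homodimers they repress, and with the CNC factors NRF2 or BACH1 they turn antioxidant-response genes on or off. In endothelium, AP-1 genes are classic immediate-early genes that answer growth factors, cytokines and mechanical force.

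Library totals ranged from 12922959 to 18655749 deposited counts. Of the 12892 genes tested, 68.8% passed an adjusted p of 0.05 (edgeR), 33.7% higher and 35.1% lower under pressure, so a call by itself sets no gene apart in these data. Levels are CPM (deposited counts relative to library size) scaled with TMM factors, and changes are log2 fold changes of pressure over control with their standard error. Scaling by library totals alone lowered the median change of all genes by 0.213 on the log2 scale, and upper-quartile scaling lowered it by 0.113. The third pressure library was the outlying one of its group (chi-square per degree of freedom over genes 23.1 and 16.6 against replicates 1 and 2, which gave 5.20 between them). All 12 endothelial markers were detected, with a summed level of 7406 to 7833 CPM in controls and 6341 to 7168 CPM under pressure, 1 of them higher and 7 lower. Mcam, which encodes the bead antigen CD146, was the one that rose, from 13.9 ± 0.885 to 27.0 ± 4.13 CPM. Macrophage transcripts were abundant too: the 12 macrophage markers summed to 7072 to 7653 CPM in controls and 6606 to 7151 CPM under pressure, 2 higher and 2 lower. Sums of this kind depend on the genes listed and are not per length, so they do not measure the share of a cell type. Stellate cell markers summed to at most 189 CPM, hepatocyte markers to at most 17.6 CPM, and lymphocyte and neutrophil markers to at most 13.8 CPM in any library, with S100a9 at 0 throughout. The part of these cells in the results that follow was not tested, and in bulk RNA fewer cells of a type cannot be told apart from less RNA per cell.

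Members of every family rose under pressure, and none fell. Of the 10, 9 passed an adjusted p of 0.05 as higher (edgeR), where 33.7% of all tested genes did, and 8 of the 9 members whose control counts alone would have passed the filter were higher. The median log2 change was 1.00 over the 10 members and -0.02 over all tested genes. The exception was Jund. At least a 2-fold rise was reached by 5 members, against 9.64% of all tested genes. The same number of members lay without overlap between the groups as passed the test: 9 had all 3 pressure values above all 3 control values, as did 34.9% of all tested genes. No member had all pressure values below all control values, as 37% of all tested genes did. The 2-fold count, the count without overlap and the median include Fosb, which passed the count filter only through its pressure libraries. The members fell into a group of large rises (Fosb, Fosl1 and Fos, each over 5-fold) and a group of rises between 1.52-fold (Jun) and 2.09-fold (Atf3).

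**Figure D1:**
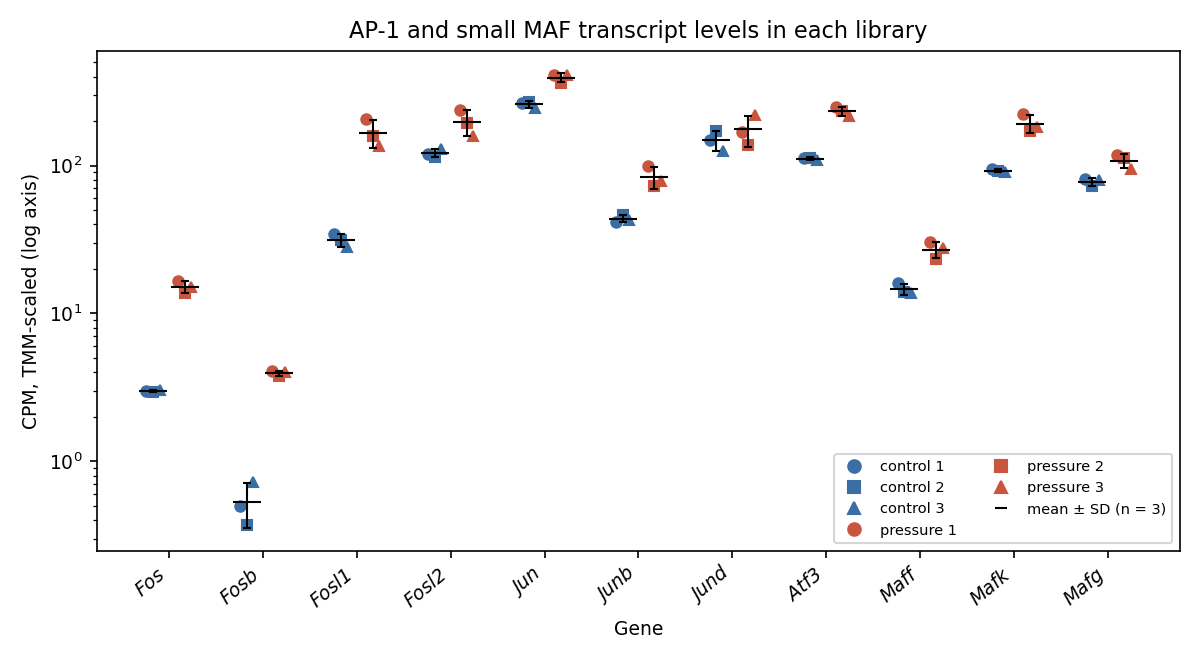
Level of each gene in each library in TMM-scaled CPM on a log axis, controls in blue and pressure libraries in red, one symbol per replicate number, with the mean ± SD of 3 libraries in black. Jund is the gene whose groups overlap, and Fosb is the least abundant, at 0.373 to 0.727 CPM in controls.

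In the FOS family, Fos itself was scarce. Fos encodes c-FOS, the founding FOS protein, whose transcript is normally induced and degraded within minutes to hours. Its level was 3.00, 2.93 and 3.04 CPM in control replicates 1 to 3 and 16.6, 13.8 and 15.1 CPM in pressure replicates 1 to 3, which rests on 46 to 60 counts per control library and 184 to 266 per pressure library. All pressure values lay above all control values, by a 5.06-fold rise (log2 fold change 2.34 ± 0.13, adjusted p = 2.74e-07). That change ranked 191 among the 12892 genes in order of log2 fold change. Fos lies on chromosome 12 from 85473890 to 85477273 on the plus strand of GRCm38, with 2352 exonic bases.

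Fosb, which encodes FOSB and the truncated isoform ΔFOSB, had the largest change of the 10 and the lowest level. It stood at 0.4996, 0.373 and 0.727 CPM in controls, from 10, 7 and 11 counts, and at 4.05, 3.77 and 4.01 CPM under pressure, from 65, 62 and 49 counts. The groups did not overlap, and the rise was 7.47-fold (2.90 ± 0.25, adjusted p = 3.29e-06). With so few control counts, the size of this change has the largest standard error among the members. Gene-level counts do not separate the 2 isoforms. Fosb lies on chromosome 7 from 19302696 to 19310051 on the minus strand.

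The promoters of these genes are shown because Fos and Fosb rose most among the members with a promoter sequence. They are the 250 bases before the annotated start in RefSeq on GRCm38.p6, written 5′ to 3′ in the direction of transcription, with capitals marking matches to the motifs searched on both strands. Fos is chr12:85473640-85473889 on the plus strand and Fosb is chr7:19310046-19310295 on the minus strand.
Fos: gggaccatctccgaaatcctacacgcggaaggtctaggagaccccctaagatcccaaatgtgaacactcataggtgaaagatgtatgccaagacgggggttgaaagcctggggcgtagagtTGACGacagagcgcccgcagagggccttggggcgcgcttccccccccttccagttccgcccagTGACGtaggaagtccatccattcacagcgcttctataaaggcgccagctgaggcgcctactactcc
Fosb: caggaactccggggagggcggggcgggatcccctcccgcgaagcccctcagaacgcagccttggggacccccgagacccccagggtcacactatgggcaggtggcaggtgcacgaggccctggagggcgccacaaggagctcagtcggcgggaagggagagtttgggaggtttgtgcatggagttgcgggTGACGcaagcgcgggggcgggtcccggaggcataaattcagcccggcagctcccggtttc
The motifs were the CRE half-site TGACG, the full CRE TGACGTCA (which holds the half-site on both strands), the variant TGACATCA, the TPA response element TGANTCA and the CArG box bound by serum response factor. They were chosen after the sequences had been seen. Fos held the half-site at -129 and -66 from the start and Fosb at -60. The half-site was present in 6 of the 9 members with a promoter in the table (Fos, Fosb, Junb, Atf3, Maff and Mafk) and in 17.8% of all 32851 promoter windows of that length, or in any window of 19.8% of the genes in the table. Neither the TPA response element (6.75% of all windows) nor the CArG box (1.47%) matched in any of the members' windows. The RefSeq start of Jund lies 1210 bases from the nearest GENCODE start and that of Fosl2 299 bases, so these windows may not be the promoters used. A match describes letters only, and elements outside these 250 bases were not searched.

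Fosl1, which encodes FRA-1, had the second of the 3 large rises. Its values were 34.6, 31.2 and 28.3 CPM in controls and 206, 159 and 136 CPM under pressure. Every pressure value lay far above every control value (5.33-fold, 2.41 ± 0.15, adjusted p = 4.03e-07). FRA-1 is a FOS protein of later, sustained responses and lacks the transactivation domain of c-FOS. Fosl1 lies on chromosome 19 from 5447547 to 5455946 on the plus strand, and 1163 of its 2033 exonic bases are shared with Ccdc85b on the opposite strand. Ccdc85b, which was examined because of this overlap, also rose, from 52.4, 50.9 and 44.7 CPM to 200.3, 152 and 138 CPM (1.73 ± 0.13). The strand setting of the counting is not given in the sources used here, so reads from the shared bases cannot be assigned. The count ratio of Fosl1 to Ccdc85b was 0.612 to 0.660 in controls and 0.986 to 1.04 under pressure, so the 2 values did not move in a fixed proportion.

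Fosl2, which encodes FRA-2, rose least in the family. It measured 119.5, 115 and 130 CPM in controls and 238, 195 and 159 CPM under pressure. The groups did not overlap, but the lowest pressure value (replicate 3) was closer to the control values than to the highest pressure value. The rise was 1.63-fold (0.70 ± 0.13, adjusted p = 6.49e-04) or, on the log2 scale, 0.84 without pressure replicate 3, 0.55 without pressure replicate 1 and 0.48 with library totals only, each passing. Fosl2 lies on chromosome 5 from 32135801 to 32157842 on the plus strand.

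The JUN family, whose proteins every FOS protein needs as partner, changed less. Jun encodes c-JUN, the main target of the JNK kinases and a gene that its own protein activates. It was measured at 265, 269 and 243.5 CPM in controls and 409.5, 363 and 407 CPM under pressure. The groups did not overlap, and the rise was 1.52-fold (0.60 ± 0.08, adjusted p = 5.23e-05), the smallest among the members that passed. Jun is a single-exon gene on chromosome 4 from 95049034 to 95052222 on the minus strand. Its promoter is shown for the TGACATCA variant at -45, a sequence present in 2.93% of all windows and, among the members, also in a Maff promoter; the window is chr4:95052223-95052472 on the minus strand.
Jun: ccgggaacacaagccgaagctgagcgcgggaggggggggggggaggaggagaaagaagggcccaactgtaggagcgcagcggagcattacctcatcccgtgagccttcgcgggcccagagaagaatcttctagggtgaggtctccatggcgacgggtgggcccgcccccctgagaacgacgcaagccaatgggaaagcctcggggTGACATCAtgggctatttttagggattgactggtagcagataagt

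Junb, which encodes JUNB, a weaker activator that can oppose c-JUN, rose more than Jun in proportion. It measured 41.6, 46.4 and 43.0 CPM in controls and 99.8, 72.5 and 78.6 CPM under pressure. All pressure values were above the highest control, with replicate 1 the highest (1.92-fold, 0.94 ± 0.12, adjusted p = 4.58e-05). Junb lies on chromosome 8 from 84974484 to 84978718 on the minus strand. It shares 173 exonic bases with Prdx2 on the other strand, which changed in the opposite direction (-0.33 ± 0.09).

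Jund, which encodes JUND, the JUN protein that is expressed most steadily in resting cells, did not pass. Its values were 149.8, 170.2 and 124.9 CPM in controls and 168, 139 and 221 CPM under pressure, with overlapping groups and the widest spread of any member in relation to its change. The log2 change was 0.24 ± 0.16 (adjusted p = 0.195). Without pressure replicate 2, the lowest of its group, the change was 0.39 and passed (adjusted p = 0.0462); without pressure replicate 3, the highest, it was 0.05 and did not pass. A change of Jund thus could not be resolved with these samples. Jund is a single-exon gene on chromosome 8 from 70698949 to 70700616 on the plus strand, and 877 of its 1668 bases lie under an antisense transcript, Gm11175, not analysed here.

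Atf3 encodes ATF3, a stress-induced bZIP repressor and partner of JUN proteins. Its level was 113, 113 and 109 CPM in controls and 248, 235 and 215 CPM under pressure. Each group was tight and the groups lay far apart (2.09-fold, 1.06 ± 0.08, adjusted p = 1.15e-06). Atf3 lies on chromosome 1 from 191170296 to 191218039 on the minus strand. The promoter at chr1:191183334-191183583 on the minus strand is shown because its half-site, read as CGTCA, begins at -7, just before this RefSeq start, which lies inside the GENCODE span of the gene.
Atf3: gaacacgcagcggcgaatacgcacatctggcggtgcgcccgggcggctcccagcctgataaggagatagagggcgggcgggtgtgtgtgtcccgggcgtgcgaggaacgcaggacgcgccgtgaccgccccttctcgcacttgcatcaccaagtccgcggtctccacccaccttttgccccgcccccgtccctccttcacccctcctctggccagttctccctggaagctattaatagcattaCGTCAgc

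Both small MAF members rose by similar amounts. Maff encodes MAFF, the stress-inducible small MAF, and went from 16.1, 13.9 and 13.7 CPM in controls to 30.2, 23.3 and 27.5 CPM under pressure (1.85-fold, 0.89 ± 0.12, adjusted p = 8.58e-05). Mafk encodes MAFK, a ubiquitous small MAF, and went from 95.02, 91.6 and 90.7 CPM to 223, 172 and 183 CPM (2.08-fold, 1.06 ± 0.10, adjusted p = 6.35e-06). Neither gene had overlapping groups, and in both the highest value was that of pressure replicate 1. Mafg, the remaining small MAF gene and not among the 10, was measured at 80.8, 72.4 and 79.9 CPM in controls and 118, 112 and 95.1 CPM under pressure, a smaller rise (0.48 ± 0.09, adjusted p = 0.00106). Maff lies on chromosome 15 from 79346621 to 79359076 and Mafk on chromosome 5 from 139791513 to 139802653, both on the plus strand. Mafk shares 169 exonic bases with Tmem184a on the other strand, which had at most 4 counts in any library. Maff has 3 annotated starts in the RefSeq table, and the window before the middle one, chr15:79347270-79347519 on the plus strand, is shown because it held the sole full CRE among the members, at -29; 1.55% of all windows hold one.
Maff: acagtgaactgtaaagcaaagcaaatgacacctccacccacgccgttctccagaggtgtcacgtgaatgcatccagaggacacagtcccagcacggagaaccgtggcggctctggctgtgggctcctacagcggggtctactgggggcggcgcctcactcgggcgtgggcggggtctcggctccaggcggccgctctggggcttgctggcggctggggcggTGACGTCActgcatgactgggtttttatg

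**Figure D2:**
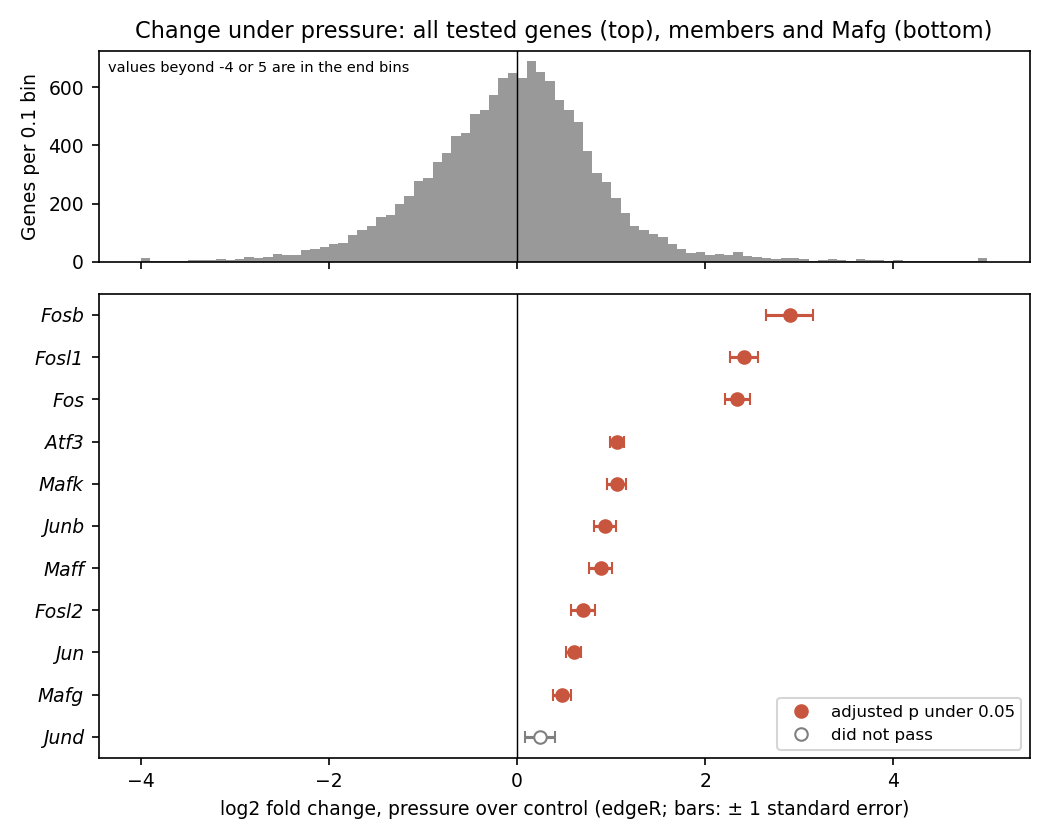
Top, the number of tested genes per 0.1 of log2 fold change of pressure over control. Bottom, the log2 fold change of each member and of Mafg with ± 1 standard error (edgeR, n = 3 per group); filled points passed an adjusted p of 0.05, and Jund, at 0.24, did not.

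The pressure libraries differed in the same way for most members. Pressure replicate 1 held the highest value of its group for 9 of 10 members, the exception being Jund, and pressure replicate 2 held the lowest for 7 of 10. Among controls, replicate 3 was lowest for 6 members. In log2 units, the deviation of pressure replicate 1 from its group mean reached 0.32 for Fosl1 and 0.29 for Fosl2. For these genes replicate 3 deviated by -0.27 and -0.29, while for Jund it deviated by 0.35. All 3 pressure values lay above all 3 control values for 9 of 10 members, as they did for 34.9% of all tested genes. How many of all tested genes had these library orders was not counted.

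Levels were compared between genes only per kilobase of annotated exon (CPM per kb). In controls the order from high to low was Jund at 88.9, Jun at 81.3, Atf3 at 51.8, Mafk at 23.7, Junb at 19.0, Fosl1 at 15.4, Fosl2 at 12.5, Maff at 5.62, Fos at 1.27 and Fosb at 0.0854 CPM per kb. The ranges of Jund and Jun overlapped, while every later neighbour in that order was separate. Under pressure the order began with Jun at 123.3, Atf3 at 108, Jund at 105 and Fosl1 at 82.2 CPM per kb, and the ranges of these neighbours overlapped from each to the next. Mafk at 49.4, Junb at 36.3, Fosl2 at 20.4, Maff at 10.4, Fos at 6.44 and Fosb at 0.632 CPM per kb followed without overlap. By this measure Fosl1 moved from rank 6 to rank 4, and Fos and Fosb remained the lowest in both groups. The order depends on the length used. With coding length, Jun led Jund in controls (58.1 and 32.4% of the JUN family sum) and Fosl2 led Fosl1 (75.0 and 23.1% of the FOS family sum).

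The measured make-up of the FOS family shifted towards Fosl1. Reads from the 1163 of its 2033 exonic bases that are shared with Ccdc85b could not be assigned. This limit bears on the level and rank of Fosl1, its share, the family sum and its ratio to Fosl2. Summed over the family, the level was 29.3 ± 1.22 CPM per kb in controls and 109.7 ± 22.1 CPM per kb under pressure. Fosl1 made up 55.4, 53.8 and 48.4% of that sum in control replicates 1 to 3 and 75.9, 74.6 and 74.1% in pressure replicates 1 to 3. Fosl2 went the other way in share, from 42.9 ± 3.43% to 18.6 ± 0.560%, although its own level rose. Fos made up 4.34 ± 0.176% and 5.98 ± 0.964%, and Fosb under 1% in every library. With coding length in place of exonic length, Fosl1 had 23.1% in controls and 48.2% under pressure and Fosl2 75.0% and 47.7%, so which gene led depended on the length used while the direction of the shift did not.

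The JUN family kept a more even make-up. Its sum was 189 ± 18.4 CPM per kb in controls and 265 ± 33.5 CPM per kb under pressure. Jun held 43.1 ± 2.06% and 46.8 ± 3.19%, Jund 46.8 ± 2.66% and 39.5 ± 4.77%, and Junb 10.1 ± 0.813% and 13.8 ± 2.14%. The ranges of Jun and of Jund overlapped between the groups, and those of Junb did not. In the small MAF family, whose sum was 43.2 ± 1.63 and 79.1 ± 9.32 CPM per kb, Mafk went from 54.9 ± 1.15% to 62.3 ± 1.78%, Mafg from 32.1 ± 1.18% to 24.5 ± 2.50%, and Maff stood at 13.01 ± 0.720% and 13.2 ± 0.974%.

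**Figure D3:**
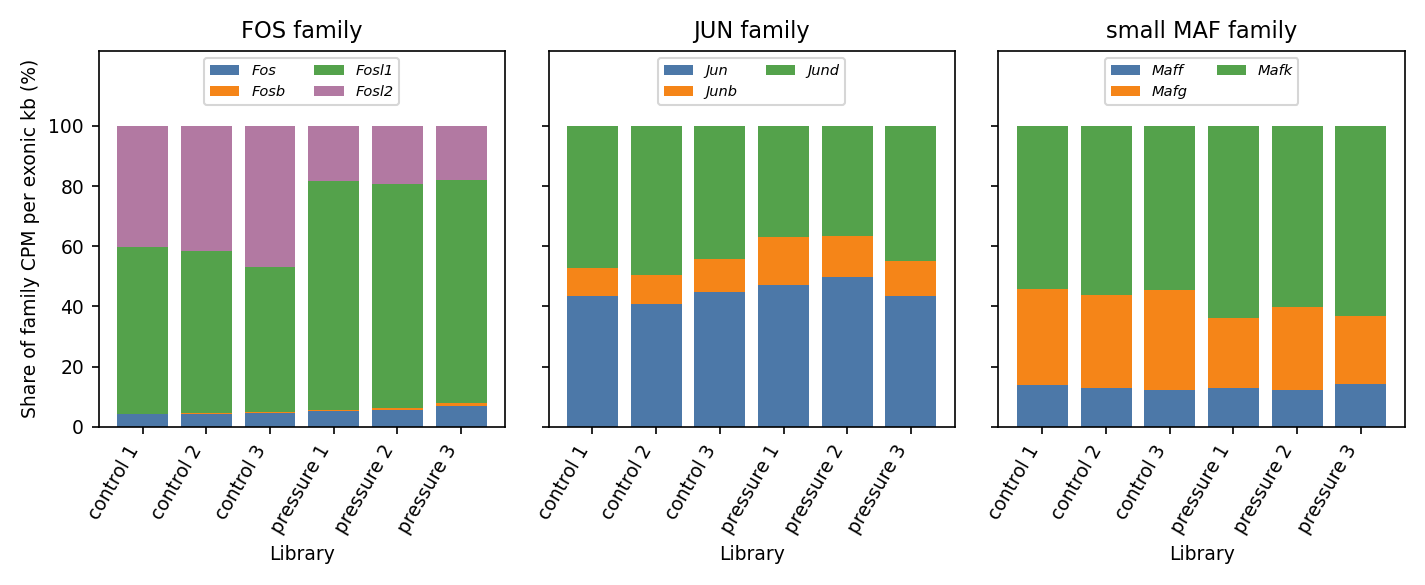
Share of each gene in the summed CPM per exonic kilobase of its family, as stacked bars for the 6 libraries. The green Fosl1 segment fills 48.4 to 55.4% of the FOS bar in controls and 74.1 to 75.9% under pressure.

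Ratios of gene pairs within a library do not depend on how libraries are scaled, and 8 pairs were compared with 2-sided exact permutation tests, for which 3 against 3 libraries allow no p below 0.1. The log2 ratio of Fosl1 to Fosl2 was -1.79, -1.88 and -2.20 in controls and -0.21, -0.29 and -0.22 under pressure, a difference of 1.72 (exact p = 0.1, adjusted p = 0.133). Fos to Fosl2 differed by 1.65 (exact p = 0.1, adjusted p = 0.133), again without overlap. These are the largest differences of the 8, and both are between a gene of large rise and Fosl2. Junb to Jun differed by 0.32 and Atf3 to Jun by 0.46, each without overlap (exact p = 0.1, adjusted p = 0.133). Jund to Jun differed by -0.37 with overlapping groups (exact p = 0.2, adjusted p = 0.2), and Fosb to Fos by 0.55, also with overlap (exact p = 0.2, adjusted p = 0.2). Mafk to Maff differed by 0.16 and Mafg to Maff by -0.41, the groups lying apart in both (exact p = 0.1, adjusted p = 0.133). None of the 8 passed, as none could in this design.

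**Figure D4:**
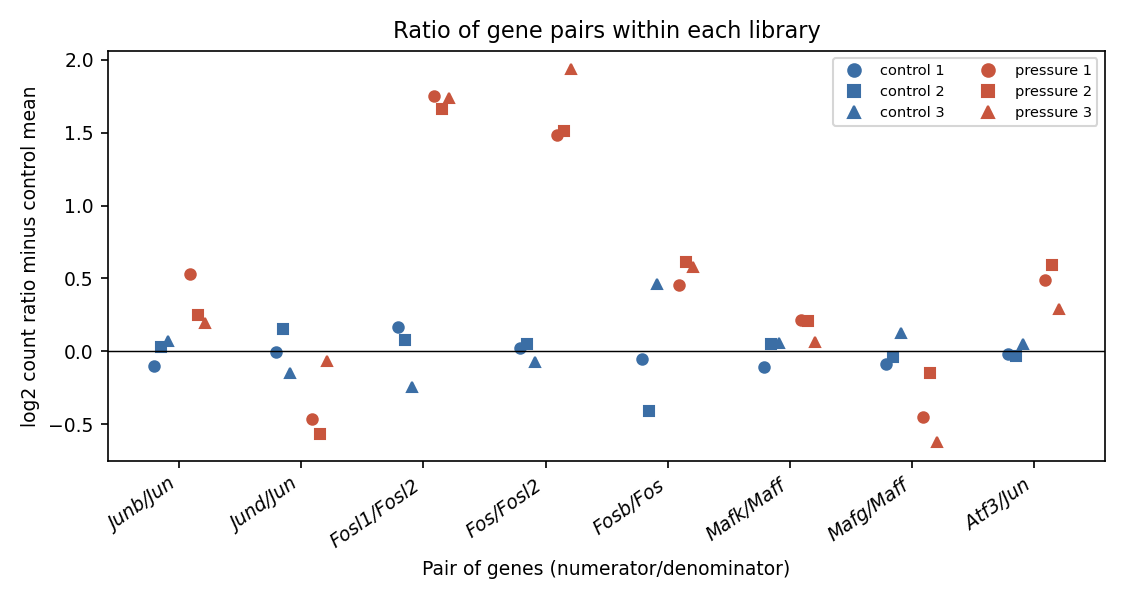
Log2 ratio of the counts of 2 genes within each library, minus the mean of the 3 controls, for 8 pairs. The pressure libraries of Fosl1/Fosl2 and Fos/Fosl2 lie well above the controls, and those of Jund/Jun overlap them.

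Other bZIP genes, only some of which encode partners of these proteins, moved in both directions. Of 29 listed genes 25 were tested, and 13 were higher and 7 lower (33.7% and 35.1% of all tested genes), with a median log2 change of 0.22 (-0.02 over all tested genes). Nfil3, a bZIP repressor, rose most, from 4.22 ± 0.718 to 51.65 ± 9.49 CPM. Atf4, the effector of the integrated stress response and an activator of Atf3, rose from 612 ± 29.0 to 1520 ± 81.45 CPM, and Cebpb, a C/EBP factor of inflammatory responses, from 48.9 ± 4.27 to 149 ± 27.4 CPM. The large MAF gene Maf, a regulator of sinusoidal endothelial and macrophage identity, fell by 1.49 on the log2 scale, and Bach2, a CNC repressor and small MAF partner, fell by 1.31. Atf5 (0.09 ± 0.08) and Cebpg (-0.14 ± 0.07), the most abundant of those that did not pass, were at 121 and 131 CPM in controls. Cebpg was called lower under upper-quartile scaling (-0.26) and under library totals only (-0.36).

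The kinases and serum response factors upstream of Fos and Jun moved in both directions. Of 31 tested genes 11 were higher and 12 lower, with a median of 0.16. Of all tested genes, 33.7% were higher and 35.1% lower, so these counts are near the background. With library totals only, 9 were higher and 15 lower, where 3129 and 5887 of all 12892 tested genes were. The JNK arm itself was split. Mapk8, encoding JNK1, went from 36.8 ± 1.40 to 97.1 ± 8.45 CPM, and Map2k7, encoding its activator MKK7, from 68.9 ± 1.69 to 151 ± 15.6 CPM. Map2k4, encoding the other JNK activator MKK4, rose by 0.60 ± 0.08, but Mapk9, encoding JNK2, fell by 0.53 and Map3k1, encoding the upstream kinase MEKK1, by 0.85 on the log2 scale; these 3 genes were chosen after their values were seen. Map2k3, encoding the p38 activator MKK3, rose by 1.32 ± 0.08. Mapk3, encoding ERK1, fell from 244 ± 12.0 to 97.6 ± 7.41 CPM and Mapk12, encoding p38γ, from 113 ± 10.5 to 32.3 ± 4.76 CPM. Map2k2, encoding MEK2, changed by 0.16 ± 0.09 (adjusted p = 0.132). These are transcript levels and say nothing of kinase activity.

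Genes of AP-1 feedback and turnover also moved in both directions. Among 23 genes for phosphatases, proteins that bind AU-rich mRNA and ubiquitin ligases, 14 were higher and 6 lower, with a median of 0.65, where 33.7% of all tested genes were higher and 35.1% lower. One of the 14, Elavl1 (0.32 ± 0.09, not passing with library totals only), encodes HuR, which stabilises AU-rich transcripts; it was named after its value was seen. The phosphatase genes Dusp14 and Dusp10 rose by 1.87 ± 0.12 and 1.69 ± 0.10, the latter encoding a phosphatase of JNK and p38. Zfp36l2, encoding a protein that destabilises AU-rich transcripts, rose by 1.02 ± 0.08, and Hnrnpd, encoding AUF1, went from 197 ± 9.47 to 371 ± 19.9 CPM. Nedd4, a ubiquitin ligase gene, fell from 784.5 ± 42.8 to 415 ± 35.5 CPM. Khsrp (0.13 ± 0.09) and Rfwd2, which encodes the c-JUN ligase COP1 (0.22 ± 0.11), did not pass, but both passed as higher without pressure replicate 3 (0.19 and 0.33).

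Textbook AP-1 targets had 19 of 28 tested members higher and 4 lower, with a median of 0.53 (33.7% of all tested genes were higher and 35.1% lower). With library totals only, 13 were higher and 4 lower, where 3129 and 5887 of all 12892 tested genes were. The chemokine genes Cxcl2 and Ccl2 rose by 4.75 ± 0.13 and 2.26 ± 0.13, Plaur (the urokinase receptor) from 129 ± 10.2 to 382 ± 28.5 CPM, Vegfa by 1.53 ± 0.11 and the cytokine gene Il1a by 1.46 ± 0.08. Cd44, encoding a hyaluronan receptor, changed by 0.14 ± 0.08 (adjusted p = 0.159). All 28 have other regulators as well. This and the other gene lists were chosen with earlier results of these data known, so their counts are descriptions only.

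Antioxidant-response genes, which small MAF heterodimers bind, had 15 of 20 members higher and 2 lower, with a median of 0.33 (33.7% and 35.1% of all tested genes). With library totals only, 9 were higher and 3 lower, where 3129 and 5887 of all 12892 tested genes were. Hmox1, whose product degrades heme, rose by 0.97 ± 0.07 and Sqstm1, encoding the autophagy receptor p62, went from 2847 ± 141 to 6704 ± 508 CPM. Gclc, Osgin1 and Keap1 rose by 0.96 ± 0.09, 0.87 ± 0.08 and 0.83 ± 0.08. Taldo1 (-0.03 ± 0.08) and Ftl1 (0.20 ± 0.10) did not pass, while Ftl1 passed as higher without pressure replicate 1 (0.27) and Taldo1 as lower with library totals only (-0.24). The changes of the members themselves kept their sign and their call (Jund not passing) under all 4 scalings.

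**Figure D5:**
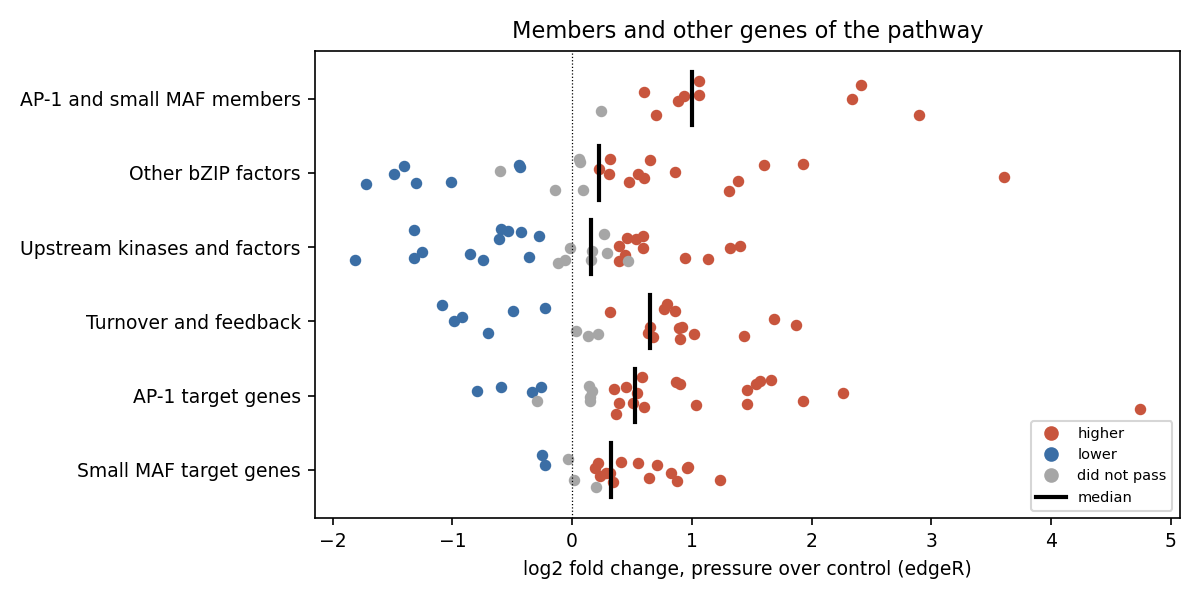
Log2 fold change of pressure over control (edgeR) for the 10 members and for the tested genes of 5 lists, 1 point per gene with the vertical position jittered, red for higher, blue for lower and grey for not passing, with the median as a black bar. The medians run from 0.16 for upstream kinases and factors to 1.00 for the members.

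For each member that passed, the genes of most similar pattern were taken as those with the smallest root mean square distance of log2 CPM over the 6 libraries, each gene centred on its control mean. For Fos these were Arl4c (distance 0.067) and Ifrd1 (0.0752), for Fosb Apln (0.104) and Arl4c (0.112), and for Fosl1 Sesn2 (0.0934) and Zbtb2 (0.103). Junb was nearest to Socs3 (0.0472) and Col11a2 (0.0666), and Maff to Arl4d (0.0589) and Selp (0.0638). Atf3 was nearest to Lrig1 (0.0255) and Rars (0.0283), Jun to Cxxc1 (0.031) and Psmc3 (0.0314), Fosl2 to Orai2 (0.0355) and Aldh1a1 (0.0423), and Mafk to Rep15 (0.0544) and Nolc1 (0.0597). The distances were larger for the members of large rise than for those of small rise. All points share the same 6 libraries and are dominated by the difference between the groups, and Aldh1a1 and Rep15 were under 1 CPM in controls. Fosb, at 0.533 CPM in controls, was near the 0.5 CPM added before the log, which shrinks its rise in this measure. Its fitted log2 change was 2.90, against 2.17 for Apln and 2.16 for Arl4c. The rise of Aldh1a1 (0.92) was not called without pressure replicate 1 (0.71).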

How the data were processed

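Values are the authors' deposited expected counts, partly fractional, by gene symbol for each of the 6 libraries, made with a stranded mRNA kit and single reads of 101 bases per the labels' protocols. The build mm10, Cufflinks 2.2.1 and TopHat2 2.2.1 are named, per the submitters' processing notes. Neither counting tool nor strand setting nor annotation is given in the sources used here. Samples were grouped by their titles, with 3 per group.

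Counts were rounded, filtered with filterByExpr (minimum count 10, minimum total 15; 12892 genes with 99.94% of counts kept) and scaled by TMM. The quasi-likelihood F-test of edgeR 4.0.16 (R 4.3.3, limma 3.58.1, DESeq2 1.42.0 for alternatives) had no covariates and was two-sided; p-values were adjusted by Benjamini-Hochberg across the tested genes. The standard error is the log2 change divided by the square root of F. Pair ratios used a pseudocount of 0.5 counts (scipy 1.17.1), pattern distances log2(CPM + 0.5). No pair of libraries within a group agreed within sampling noise (chi-square per degree of freedom at least 2.96). Spans and lengths came from GENCODE M21 (GRCm38), promoters from RefSeq.

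The members and gene lists were chosen with earlier results of these data known. Named were the members, Mafg, from each list up to 5 genes past the threshold with the smallest p and up to 2 abundant ones that did not pass, and the 2 genes nearest in pattern to each member; a few genes that this rule names are not reported here. Of the marker lists only the sums and counts are given, with Mcam and S100a9 chosen after their values were seen. Alternatives were other scalings, tests, filters and thresholds, a replicate block, omission of the 50 genes of highest level, and omission of single samples. No outlying sample could be tested with 3 per group.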

Additional observations from a re-analysis of the deposited data

How the results depend on the processing

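Under 16 alternatives, no member turned its direction and 9 members stayed called in each setting that tested them, with 0 called lower throughout. Fosb is not tested with a minimum mean of 5 CPM, which left 8 called higher. In that setting 7262 of 10134 tested genes were called in either direction, 3693 of them lower. Across the 16 settings, 3129 to 4780 genes were called higher and 3693 to 5887 lower, with 10134 to 17805 tested. Jund ranged from 0.033 (library totals only) upward, from 0.05 to 0.391 when 1 sample was left out, and passed in 1 setting, without pressure replicate 2 (adjusted p = 0.0462, up to 0.867 elsewhere). Leaving out 1 sample gave 9 to 10 members called higher, where 3887 to 4780 of 13054 to 13125 tested genes were called higher. Genes called in either direction were then 7981 to 9746. No sample label says what a sample number marks. Deviations of same-numbered samples correlated at 0.17, -0.30 and -0.18, and those of unlike-numbered samples at -0.22 to 0.37. With 3 samples per group, such correlations cannot decide whether numbers mark a shared preparation. With the number as a replicate block 9 members were higher and 0 lower. In that setting 8807 of all 12892 tested genes had an unadjusted p under 0.05 (edgeR), in either direction. The antioxidant-response genes called lower went from 2 to 1 with the block. Of these antioxidant-response genes, 9 were higher with library totals only, as were 3129 of all 12892 tested genes. Those lower were 0 at an adjusted p of 0.01 and 0 to 2 when 1 sample was left out. Coding length moved the family shares, in controls and under pressure, to 1.59 and 3.20% for Fos, 23.1 and 48.2% for Fosl1, 75.0 and 47.7% for Fosl2, 58.1 and 61.0% for Jun, 32.4 and 26.4% for Jund, 8.01 and 8.36% for Maff, 41.1 and 32.3% for Mafg, 50.9 and 59.4% for Mafk, and to 0.943% for Fosb under pressure. None of the 8 pair ratios turned its sign, though Fosb to Fos was 0.186 with 5 counts added in place of 0.5. Named genes near 0 turned their sign: with library totals only Atf5 was -0.123, Jdp2 -0.157, Atf7 -0.15, Map2k2 -0.057, Khsrp -0.083, Cd44 -0.074 and Ftl1 -0.009, with upper-quartile scaling Atf5 was -0.023, Jdp2 -0.056 and Atf7 -0.049, and with 1 sample left out Taldo1 ranged from -0.11 to 0.012, Jdp2 from -0.003 to 0.11 and Atf7 from -0.02 to 0.21. The cause of these differences was not tested. The low counts of Fosb, 7 to 11 per control library, limit its precision.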

Other observations

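Some subfamilies of bZIP genes were grouped after their values had been seen, so the following are descriptions. The C/EBP genes Cebpa, Cebpb and Cebpd rose by 0.55 ± 0.09, 1.60 ± 0.13 and 0.65 ± 0.16 on the log2 scale, while Cebpg (-0.14 ± 0.07) did not pass. Ddit3, which encodes the C/EBP partner CHOP, went from 57.0 ± 5.73 to 149.5 ± 37.2 CPM. The BATF genes, whose proteins take the place of FOS in dimers with JUN, had lower values: Batf fell from 6.57 ± 1.00 to 2.04 ± 0.6495 CPM and Batf2 by -1.40 ± 0.19, while Batf3 (-0.60 ± 0.34) did not pass. Jdp2, encoding another JUN partner, stood at 94.1 ± 1.25 and 97.9 ± 7.74 CPM (0.06 ± 0.08, not passing). Among the CREB genes, Creb1 fell from 81.1 ± 7.80 to 40.1 ± 4.02 CPM and Crem by -0.44 ± 0.09, whereas Atf1 rose from 72.3 ± 1.26 to 131 ± 8.93 CPM and Creb5, at a low level, by 1.93 ± 0.23. Atf2 rose by 0.22 ± 0.08 (adjusted p = 0.035, edgeR), a call lost with upper-quartile scaling (0.11), with library totals only (0.01), with the replicate block and without any 1 of 5 samples. Atf7 (0.07 ± 0.13) did not pass, except as higher without pressure replicate 3 (0.21). Of the partners of small MAF proteins, Bach2 fell by 1.31 on the log2 scale, Bach1 rose by 0.60 ± 0.10, and Nfe2l1 and Nfe2l2 (which encodes NRF2) by 0.31 ± 0.07 and 0.32 ± 0.07, calls that were lost with library totals only (0.10 and 0.11).

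Phosphatases of the MAP kinases moved in both directions. Dusp8 and Dusp16, whose products act mainly on JNK and p38, rose by 1.44 ± 0.13 and 0.79 ± 0.14, as did Dusp1 and Dusp4 (0.86 ± 0.08 and 0.63 ± 0.09), while Dusp7, whose product acts on ERK, changed by -0.99 ± 0.09. Dusp6, encoding another ERK phosphatase, changed by -0.22 ± 0.07 (adjusted p = 0.0174, edgeR), a call that was lost with the replicate block (adjusted p = 0.0624), at an adjusted p of 0.01, and without control replicate 2 or 3 or pressure replicate 2. Dusp5, whose product also acts on ERK, rose by 0.90 ± 0.17. Dusp2 rose by 0.65 ± 0.27 (adjusted p = 0.0484, edgeR), a call lost with DESeq2, with limma-voom, and with upper-quartile scaling or library totals only. The Dusp2 call was also lost with the replicate block, at an adjusted p of 0.01 and without any 1 of 5 samples. The mRNA decay genes Zfp36 and Zfp36l1 rose by 0.90 ± 0.12 and 0.68 ± 0.13.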
